A study of Mus musculus with 24 samples.

Results

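Cytoplasmic ribosomal protein genes encode the protein components of the 60S and 40S subunits of the ribosome outside mitochondria. They were taken from the gene expression table by their symbols: names beginning Rpl or Rps with a number, plus the stalk proteins Rplp0, Rplp1 and Rplp2 and the laminin receptor protein Rpsa, with pseudogene rows and the Rps6k kinases left out. The rule found 83 of the 22667 rows of the table. Rps18 had no value and Rps27 was listed at 0 in all samples, which left 81 genes with counts, 50 of the large subunit and 31 of the small subunit. All 81 passed the low-count filter, out of 16627 genes tested.

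RNA was sequenced from mouse E14 embryonic stem cells (ESCs) that were wild type (WT) or homozygous for the R749H substitution in Polr2a, the largest subunit of RNA polymerase II, which is called slow because it lowers the speed of transcript elongation. The slow/slow cells were made by successive rounds of gene targeting in one parental ESC line, so that genotype and cell line cannot be told apart, and the gene counts do not separate the Polr2a alleles. Each genotype was collected at 4 stages: ESCs in 2i medium, neural precursor cells (NPCs) at day 7 of differentiation, cells that carry polysialylated NCAM on their surface (PSA-NCAM+ cells), purified on beads after 10 days, and mature neurons grown for 14 days after replating at day 7. Each of the 8 groups had 3 samples, 24 in all, with 32974432 to 104466886 counted reads per sample. The 2 genotypes were plated at different densities for neural differentiation, with slow/slow cells the denser. The p-values measure the spread between the 3 samples of a group, estimated over all 8 groups together and not from the compared groups alone. The study names independent differentiation experiments for its ESCs, NPCs and neurons, and its text does not mention the PSA-NCAM+ cells.

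A mammalian ribosome holds a single copy of nearly every ribosomal protein, and surplus proteins are degraded, so the genes are generally expressed together and at high level. Their mRNAs begin with a terminal oligopyrimidine (TOP) tract, a C followed by a run of C and T, through which the mTOR pathway regulates their translation. A few have paralogs with restricted expression, such as Rpl3l in muscle, Rpl10l and Rpl39l in the male germ line, and Rpl22l1 in early development.

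Start regions of 10 members are shown so that the tract can be seen in members the results turn on. They run from 40 bases before to 20 bases from the annotated start, are taken from RefSeq on GRCm38.p6 and are written 5′ to 3′ on the strand of the gene. Capitals mark the longest run of C and T that touches the 10 bases on either side of the start. The first 5 have a C at the annotated start followed by 4 or more C or T, and the last 5 do not.

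Rps6, chr4:86857348-86857407, minus strand: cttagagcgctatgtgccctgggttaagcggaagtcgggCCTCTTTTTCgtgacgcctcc
Rpl28, chr7:4792925-4792984, plus strand: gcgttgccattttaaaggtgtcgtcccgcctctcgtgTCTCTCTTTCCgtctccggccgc
Rpl38, chr11:114668540-114668599, plus strand: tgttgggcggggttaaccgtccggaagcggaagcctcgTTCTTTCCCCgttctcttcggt
Rplp2, chr7:141447611-141447670, plus strand: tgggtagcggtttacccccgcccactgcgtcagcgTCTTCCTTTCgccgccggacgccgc
Rpl15, chr14:18270967-18271026, minus strand: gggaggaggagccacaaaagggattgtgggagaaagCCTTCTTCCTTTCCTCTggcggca
Rpl13, chr8:123102310-123102369, plus strand: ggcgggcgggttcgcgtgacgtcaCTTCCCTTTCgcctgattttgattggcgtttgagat
Rpl22l1, chr3:28805468-28805527, plus strand: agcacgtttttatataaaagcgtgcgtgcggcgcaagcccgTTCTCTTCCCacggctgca
Rpl39l, chr16:10170188-10170247, plus strand: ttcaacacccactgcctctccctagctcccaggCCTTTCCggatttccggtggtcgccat
Rpl10l, chr12:66284382-66284441, minus strand: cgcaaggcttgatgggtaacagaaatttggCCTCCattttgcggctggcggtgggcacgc
Rpl3l, chr17:24727786-24727845, plus strand: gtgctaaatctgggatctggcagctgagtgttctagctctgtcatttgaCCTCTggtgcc

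A RefSeq start window was found for 61 of the 83 members, among 27025 genes. A C at the start followed by 4 or more C or T was present in 21.3% of these members and in 3.01% of all genes. A run of 8 or more C or T near the start was present in 47.5% of the members and 15.8% of all genes, and one of 10 or more in 37.7% and 8.14%. Among exact words searched on both strands of the 300 bases around the start, CGGAAG, the core of ETS-type sites, was found in 65.6% of the members against 18.8% of all genes. The pyrimidine words CTTTCC and CTCTTTC, of which the first can overlap the second and both can overlap the C and T run, were found in 52.5% against 29.3% and in 27.9% against 9.28%. The E-box CACGTG was in 9.84% of the members and 8.09% of all genes, and TATAAA in 11.5% and 15.7%. The annotated starts of Rpl10l, Rpl39l and Rpl3l, the paralogs with restricted expression, did not carry the C followed by 4 or more C or T. These are matches of letters in the annotated windows, and no binding was measured.

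The levels of the members covered a wide range. Averaged over the 24 samples, 13 members had 1000 counts per 1000000 counted reads (CPM) or more, 34 had 100 to 1000, 13 had 10 to 100 and 21 had under 10. Rpl4, Rpl8, Rps3, Rps4x and Rpl5 together held 30.3% of all member counts, and the top 20 held 75%. Per length, in the authors' mean RPKM of WT ESCs, the lowest member was Rpl3l at 1.34, the median was 539 and the highest was Rplp1, an acidic protein of the ribosomal stalk, at 5478.

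Ribosomal protein genes have many near-identical processed pseudogenes, with which reads can be shared. In the principal transcript of each member, a median of 46.7% of 50-base windows (range 7.57 to 100%) occurred in no other annotated gene, and 44 members had under 50% of such windows. These 44 had a median of 41.5 CPM in WT ESCs, against 489 for the 37 members at 50% or more. Rpl10, a core protein at the subunit interface, with 7.87% unique windows, was listed at 3.74 to 12.2 CPM. Rpl11, which binds 5S rRNA with Rpl5, had 37.8% and was listed at 1.3 to 3.72 CPM. Per length, in the authors' mean RPKM of WT ESCs, Rpl11 stood at 8.75 and Rpl5 at 1579. How shared reads were counted is not given in the sources used here, so the levels of such members are uncertain. This holds also for the comparisons of levels between members and for the shares of counts. The tests compared each row only with itself.

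A few rows need a remark. The row labelled Rpl24 carries the identifier ENSMUSG00000022601, which the GENCODE annotation gives to Zbtb11, a zinc finger gene at chr16:55973883-56008913 on the plus strand of GRCm38. The annotated Rpl24, at chr16:55966275-55971435, and Rpl41 had no row of their own. The row labelled Rps4y2 carries ENSMUSG00000063171, annotated as Rps4l, a transcribed processed pseudogene at chr6:148354656-148355598. Both rows were kept in the counts of members, and the neuron and PSA-NCAM+ counts without them are given where they differ.

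The first question was how the members changed from ESCs to the later stages. In WT cells, members together took 3.75, 3.89 and 4.34% of all gene counts in the 3 ESC samples and 4.5, 4.26 and 4.79% in the 3 NPC samples. The PSA-NCAM+ samples had 2.96, 3.2 and 2.97%, and the neuron samples 1.49, 1.64 and 1.6%. The ESC and NPC samples overlapped, all PSA-NCAM+ samples lay below them, and all neuron samples lay lowest. The mean share was 4.0 ± 0.311, 4.52 ± 0.268, 3.04 ± 0.133 and 1.58 ± 0.0732% in the order of the stages (SD, n = 3 each). In slow/slow cells the share was 3.71, 4.49 and 3.96% in the ESC samples, 3.94, 3.89 and 3.88% in the NPC samples, 3.42, 3.27 and 3.52% in the PSA-NCAM+ samples and 2.46, 2.46 and 2.52% in the neuron samples. Again the neuron samples lay lowest, while ESC and NPC samples overlapped. The neuron share was 0.394 of the ESC share in WT cells and 0.612 in slow/slow cells. In these bulk samples, fewer cells of a type and less RNA per cell cannot be told apart.

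**Figure D1:**
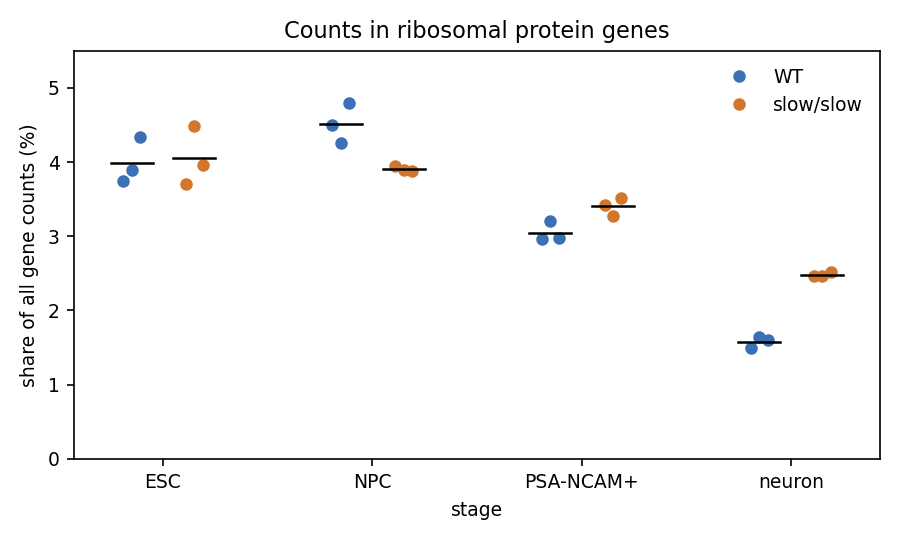
Share of all gene counts (percent, from 0) held by the 81 cytoplasmic ribosomal protein genes in each of the 24 samples, by stage and genotype, with points for samples and a line for the mean of 3 samples. The WT neuron samples lie between 1.49 and 1.64%, and the slow/slow neuron samples between 2.46 and 2.52%.

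Gene by gene, WT neurons had nearly all members lower than WT ESCs. By edgeR at a false discovery rate (FDR) under 0.05, 76 of 81 members were lower and 1 was higher, where 39.4% of all genes tested were lower and 43.4% higher. The median change was −1.41 (log2; 0.376-fold), against 0.08 over all genes, and the quartiles of the members were −1.61 and −1.16. All 31 small-subunit genes were lower, with a median of −1.42, and 45 of the 50 large-subunit genes, with a median of −1.40. In PSA-NCAM+ cells 75 members were lower and 0 higher (33.6 and 37.6% of all genes), with a median of −0.59. None was higher at an unadjusted p under 0.05 (0 members) or by DESeq2 (0), and the row labelled Rpl24 was the 1 member with a fitted increase, of 0.18. In NPCs, 12 were lower and 8 higher (31.6 and 34.0% of all genes), with a median of −0.02, whose sign depended on the samples and the scaling (−0.11 without WT NPC replicate 3, 0.07 without WT ESC replicate 3 and 0.06 with upper-quartile scaling). With upper-quartile scaling the NPC split became 10 lower and 16 higher, and with only the 2 groups in the fit 18 lower and 15 higher.

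Slow/slow cells went through the same stages with smaller median decreases in PSA-NCAM+ cells and neurons. In neurons 76 members were lower and 0 higher than in slow/slow ESCs (38.4 and 44.0% of all genes), with a median of −0.98. In PSA-NCAM+ cells 65 were lower and 0 higher (34.2 and 39.2% of all genes), with a median of −0.41, and 40 were lower when only those groups were fitted. At both stages 0 were higher at an unadjusted p under 0.05 and 0 by DESeq2. In NPCs 31 were lower and 1 higher (28.4 and 33.9% of all genes), with a median of −0.23. That NPC count rested on single libraries: 54 members were called without slow/slow ESC replicate 1 and 15 without slow/slow ESC replicate 2.

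**Figure D2:**
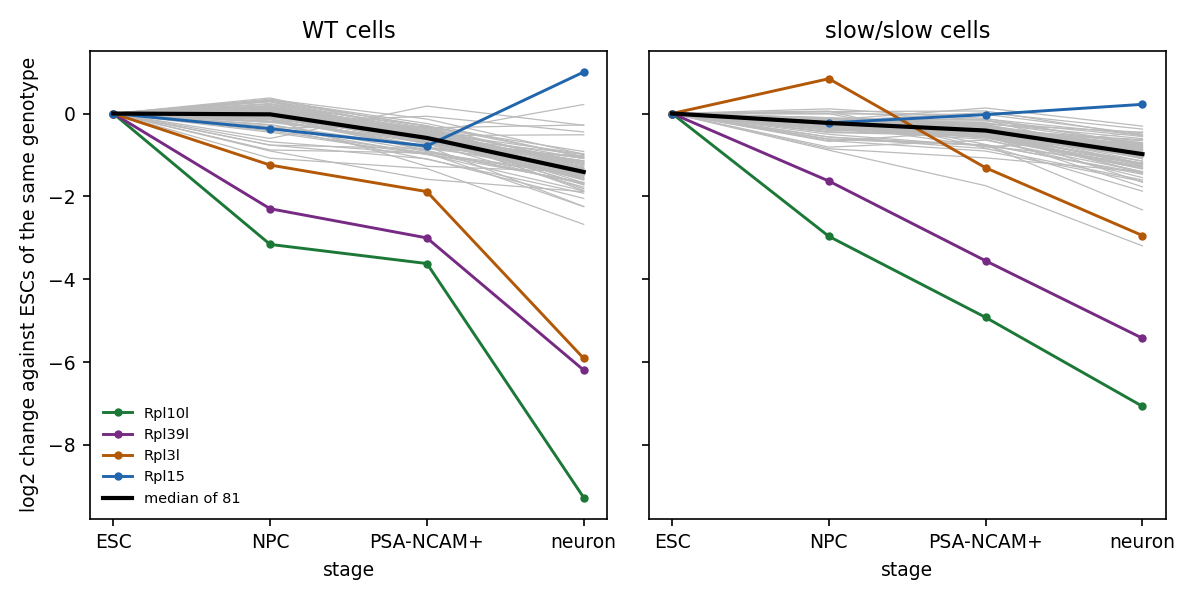
Log2 change of the 81 members against ESCs of the same genotype (vertical axis) by stage, in WT and slow/slow cells, with a thin grey line per gene, coloured lines for Rpl10l, Rpl39l, Rpl3l and Rpl15 and a thick black line for the median. The medians are −0.02, −0.59 and −1.41 in WT cells and −0.23, −0.41 and −0.98 in slow/slow cells.

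Rps6, the small-subunit protein phosphorylated by S6 kinase, followed the median. Its level was 159, 167 and 195 CPM in WT ESCs and 61.1, 66.5 and 65.6 CPM in WT neurons. The groups did not overlap, and the log2 change was −1.43 ± 0.0857 (SE; FDR 2.5e-12). In slow/slow cells Rps6 had 155, 199 and 164 CPM in ESCs and 95.7, 95.4 and 98.9 CPM in neurons, a change of −0.84 ± 0.0846 (FDR 1.26e-08).

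Rpl8, a large-subunit protein and one of the most highly counted members, had one of the larger decreases. It had 3232, 3424 and 4035 CPM in WT ESCs and 695, 786 and 775 CPM in WT neurons, every neuron sample far below every ESC sample. The change was −2.24 ± 0.0859 in WT cells (FDR 1.86e-15) and −1.34 ± 0.0835 in slow/slow cells (FDR 5.82e-12).

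Rpl15, a core protein of the large subunit, was the 1 member that was higher in WT neurons than in WT ESCs. Its level was 93.4, 89.3 and 83.9 CPM in WT ESCs, 71.8, 63.2 and 71.6 CPM in WT NPCs, 38.8, 58.7 and 57.4 CPM in WT PSA-NCAM+ cells and 183, 176 and 174 CPM in WT neurons. It fell in NPCs and PSA-NCAM+ cells, and all 3 neuron samples then lay above all ESC samples (log2 change 1.00 ± 0.11, FDR 4.21e-08). In slow/slow cells the neuron change was 0.22 ± 0.109, with an FDR of 0.0673. Of its windows 24.8% were unique, so reads of other genes may be included.

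Rpl11 was listed at 2.34, 2.24 and 2.53 CPM in WT ESCs and 2.65, 2.82 and 2.8 CPM in WT neurons, and its change of 0.22 ± 0.209 did not pass the test (FDR 0.337).

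The paralogs Rpl10l, Rpl39l and Rpl3l fell far more than the median member in neurons. Rpl10l was counted at 156, 165 and 175 CPM in WT ESCs, 18.6, 18.4 and 18.5 CPM in WT NPCs, 11.1, 16.8 and 12.4 CPM in WT PSA-NCAM+ cells and 0.292, 0.289 and 0.231 CPM in WT neurons. Each later stage lay below the ESC samples, and the neuron change was −9.27 ± 0.295 (FDR 1.12e-16). In slow/slow cells Rpl10l went from 105, 123 and 108 CPM in ESCs to 0.834, 0.896 and 0.74 CPM in neurons, a change of −7.07 ± 0.263 (FDR 1.74e-15). Of its windows 92.4% were unique.

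Rpl39l, all of whose windows were unique, had 26.9, 29.6 and 31.4 CPM in WT ESCs and 0.276, 0.465 and 0.443 CPM in WT neurons. The changes to NPCs, PSA-NCAM+ cells and neurons were −2.30, −3.0 and −6.19 in WT cells and −1.63, −3.56 and −5.42 in slow/slow cells, all past the threshold. Its parent gene Rpl39, whose product lines the exit tunnel, changed by −1.04 ± 0.106 in WT neurons and −0.56 ± 0.105 in slow/slow neurons. The row labelled Rps4y2 likewise fell at every stage, by 2.67 on the log2 scale in WT neurons (from 305, 339 and 404 CPM to 51.9, 56 and 56.2 CPM).

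The second question was how slow/slow cells differed from WT cells at the same stage. In ESCs few members differed. By edgeR 10 were higher and 5 lower in slow/slow ESCs, where 18.5% of all genes were higher and 21.9% lower, and the median difference was 0.09 against −0.02 over all genes. Leaving out 1 sample moved that median between −0.03 (without slow/slow ESC replicate 2) and 0.21 (without WT ESC replicate 3). All 15 were large-subunit genes. Of the 31 small-subunit genes 0 were called by edgeR and 0 by DESeq2, and 1 had an unadjusted p under 0.05. The counts rose to 18 higher and 6 lower when only the ESC samples were fitted. The shares of all genes in that fit are not given here. Summed neuronal markers were 45.2 to 57.1 CPM in WT and 122 to 151 CPM in slow/slow ESCs (2 of 4 higher), progenitor markers 18.3 to 19.6 and 30.5 to 33.1 CPM (2 of 3 higher), astroglial markers 3.81 to 4.88 and 2.73 to 3.28 CPM, and oligodendrocyte markers 5.85 to 7.61 and 4.61 to 5.52 CPM. These sums did not overlap, those of pluripotency, endoderm and mesoderm markers did, and their part in the result was not tested.

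In NPCs, fewer of the members than of all genes were higher in slow/slow cells. The share that was lower was near that of all genes. By edgeR 27 members were lower and 5 higher (33.3 and 6.17% of the members, 27.4 and 29.3% of all genes), with a median of −0.18 against 0.01 over all genes. Among them 14 of the 31 small-subunit genes were lower and 0 higher (0 also at an unadjusted p under 0.05 and by DESeq2), and 13 of the 50 large-subunit genes were lower and 5 higher. The member share of counts was 0.864 of the WT share. The count was sensitive to the samples: 13 members were called without WT NPC replicate 3, 19 without slow/slow NPC replicate 2 and 20 without slow/slow NPC replicate 3, and 50 (9 higher and 41 lower) when only NPCs were fitted. The shares of all genes in these fits are not given here. Summed neural progenitor markers were 37.3 to 38.5 CPM in WT NPCs and 121 to 159 CPM in slow/slow NPCs, and summed pluripotency markers were 1887 to 1961 and 1114 to 1232 CPM. Neuronal markers summed to 27.4 to 28.1 and 104 to 121 CPM (3 of 4 higher), astroglial markers to 11.1 to 12.0 and 20.5 to 22.1 CPM (2 of 3 higher), mesoderm markers to 119 to 141 and 41.4 to 48.6 CPM (1 of 4 higher, 2 lower), and oligodendrocyte markers to 12.5 to 12.9 and 6.51 to 7.47 CPM (1 of 3 higher, 2 lower). Only the sums of endoderm markers overlapped, at 115 to 133 and 107 to 139 CPM. The part of all these in the result was not tested.

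In PSA-NCAM+ cells the direction was the other way. There 35 members were higher and 5 lower in slow/slow cells (28.6 and 28.1% of all genes), or 35 and 4 without the rows labelled Rpl24 and Rps4y2. The median was 0.28 against −0.01 over all genes. Same-numbered samples of the genotypes deviated together at this stage. The fit did not use this pairing, and no fit paired at this stage alone was made. With only the PSA-NCAM+ samples in the fit the called members were 7 higher and 1 lower, and the median was 0.26. The shares of all genes in that fit are not given here. Of the members named here, the calls of Rpl5, Rpl10, Rpl11, Rpl39l, Rplp0, Rplp1 and Rps6 at this stage were lost in that fit. Progenitor markers summed to 67.1 to 99.4 CPM in WT and 259 to 331 CPM in slow/slow cells, neuronal markers to 21.4 to 34.0 and 51.7 to 224 CPM, and pluripotency markers to 1295 to 1779 and 678 to 705 CPM. Astroglial markers summed to 7.7 to 12.5 and 18.6 to 33.1 CPM, and the sums of oligodendrocyte, endoderm and mesoderm markers overlapped. The part of these markers was not tested.

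The difference was most frequent in mature neurons. There 51 of 81 members were higher and 4 lower in slow/slow neurons, against 23.4 and 28.4% of all genes, and 51 and 2 without the rows labelled Rpl24 and Rps4y2. The median was 0.41 (1.33-fold) against −0.06 over all genes, and the quartiles of the members were 0.25 and 0.57. Of small-subunit genes 23 were higher and 2 lower (median 0.51), and of large-subunit genes 28 and 2 (median 0.38). Requiring a 1.5-fold difference as well left 17 higher and 0 lower, and the share of all genes under that rule is not given here.

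The neuron counts were also taken by the share of unique windows and by level. Among the 37 members with 50% or more unique windows 26 were higher and 3 lower (median 0.44), and among the other 44 members 25 and 1 (median 0.40). Members averaging 100 CPM or more gave 40 higher and 3 lower of 47 (median 0.46), and those under 100 CPM gave 11 and 1 of 34 (median 0.32). The shares of all genes split in these ways are not given here. Whether the splits are particular to the members is therefore not known.

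**Figure D3:**
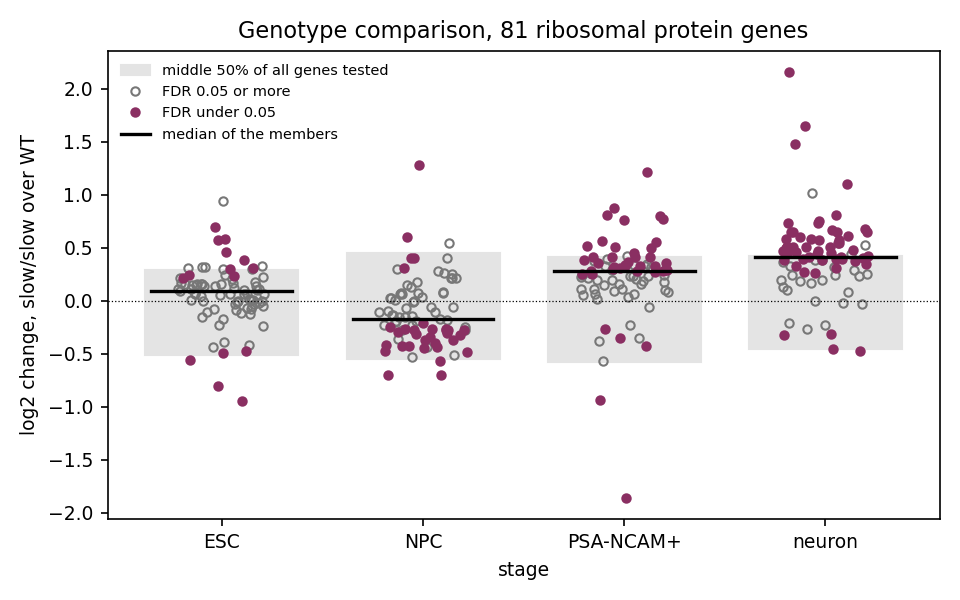
Log2 difference (slow/slow minus WT) of each of the 81 members at the 4 stages, with points for genes, filled where the FDR was under 0.05, a line for the median of the members and a grey box for the middle 50% of all genes tested. From left to right the medians are 0.09, −0.18, 0.28 and 0.41.

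Markers of several cell types also differed between the neuron groups. The sum of 4 neuronal markers was 1333 to 1429.6 CPM in WT and 1221 to 1392 CPM in slow/slow neurons, with 3 of the 4 lower by edgeR and 0 higher. Most of the sum was Tubb3, whose mean went from 928 CPM (WT) to 1191 CPM (slow/slow) at an FDR of 0.346, while Syn1 went from 221 to 60.3 CPM, Snap25 from 208 to 60.2 CPM and Rbfox3 from 36.6 to 19.7 CPM. Progenitor markers (3 genes, all higher) summed to 259 to 312 CPM in WT and 495 to 584 CPM in slow/slow neurons. Endoderm markers (4 genes, all higher) summed to 10.5 to 11.3 and 23.0 to 37.8 CPM, and mesoderm markers (3 of 4 higher, 1 lower) to 96.2 to 108 and 123 to 133 CPM. Astroglial markers (1 of 3 higher, 2 lower) summed to 138 to 169 CPM in WT and 78.3 to 88.0 CPM in slow/slow neurons, oligodendrocyte markers (1 of 3 higher, 1 lower) to 29.2 to 36.6 and 13.2 to 16.2 CPM, and pluripotency markers (3 of 5 higher, 1 lower) to 97.6 to 127 and 75.5 to 79.1 CPM. Their part in the higher ribosomal protein levels was not tested.

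Rplp0, the scaffold of the stalk that recruits elongation factors, was higher in slow/slow cells at all 4 stages, by 0.38, 0.31, 0.56 and 0.33 in turn, and no member was lower at all 4. In neurons it had 133, 147 and 143 CPM in WT and 171, 183 and 176 CPM in slow/slow cells, without overlap (FDR 0.0153, a call lost without WT neuron replicate 1). Its partner Rplp1 was higher in PSA-NCAM+ cells (0.52, FDR 0.00225) and neurons (0.47, FDR 0.00543). The other partner Rplp2, at 1.91 to 8.16 CPM over all samples, was called at no stage.

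In all, 13 members were called at no stage, a count that was not taken over all genes. With Rplp2 they included Rpsa, which binds late to the 40S subunit, and Rpl38, linked to translation of selected patterning mRNAs. Rpl38 had 208, 209 and 212 CPM in WT neurons and 245, 251 and 247 CPM in slow/slow neurons. The samples did not overlap, and the difference of 0.24 ± 0.1 had an FDR of 0.0522.

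Rpl5 and Rpl11, which with 5S rRNA form a particle that can bind Mdm2, the negative regulator of p53, did not give the same values. Rpl5 had 678, 741 and 726 CPM in WT neurons and 1257, 1255 and 1236 CPM in slow/slow neurons, all slow/slow samples higher (0.81 ± 0.0674, FDR 8.44e-09). It was also higher in ESCs (0.23) and PSA-NCAM+ cells (0.41). Rpl11 had 2.65, 2.82 and 2.8 CPM in WT neurons and 2.23, 1.99 and 2.69 CPM in slow/slow neurons, which overlapped (−0.27 ± 0.208, FDR 0.293). In PSA-NCAM+ cells Rpl11 was higher, at 2.16, 3.36 and 3.49 CPM against 1.3, 2.0 and 1.89 CPM (0.81 ± 0.21, FDR 0.00274).

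Rps19 and Rps24, small-subunit proteins mutated in Diamond-Blackfan anemia, had opposite calls at 2 stages. Rps19 was lower in slow/slow NPCs, at 249, 221 and 249 CPM against 316, 294 and 354 CPM, and higher in slow/slow neurons, at 143, 169.7 and 167 CPM against 105, 126 and 121 CPM. The samples did not overlap at either stage, with differences of −0.42 ± 0.138 (FDR 0.0131) and 0.45 ± 0.138 (FDR 0.0099). Rps24 differed by −0.27 in NPCs (FDR 0.0228) and 0.38 in neurons (FDR 0.00294). The NPC calls of both were lost without WT NPC replicate 3 or slow/slow NPC replicate 2, that of Rps24 also without slow/slow NPC replicates 1 or 3, and the neuron call of Rps19 without WT neuron replicate 1.

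Being lower in slow/slow NPCs and higher in slow/slow neurons was shared by 24 members, Rps6, Rpl3, Rpl8, Rpl37 and Rpl39 among them. Of these, Rpl3, Rpl8 and Rpl37 lie on chromosome 15. There the median difference of all tested genes was −0.57 in NPCs, with 60.4% lower, and −0.08 in neurons, with 20.3% higher. The part of the chromosome was not tested. Over all genes 27.4% were lower in slow/slow NPCs and 23.4% higher in slow/slow neurons, and the share with both calls was not counted. For Rps6 the NPC samples were 181, 171 and 193 CPM in WT and 153, 143 and 152 CPM in slow/slow cells, and the neuron samples 61.1, 66.5 and 65.6 CPM and 95.7, 95.4 and 98.9 CPM. Neither stage overlapped, with differences of −0.28 ± 0.084 (FDR 0.00767, a call lost without WT NPC replicate 3) and 0.59 ± 0.0844 (FDR 9.13e-06). A further pattern, higher in both PSA-NCAM+ cells and neurons, was shared by 27 members, among them Rpl4, Rpl5, Rps3 and Rps4x. Over all genes 28.6% were higher at the first of these stages and 23.4% at the second, and the share with both calls was again not counted.

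**Figure D4:**
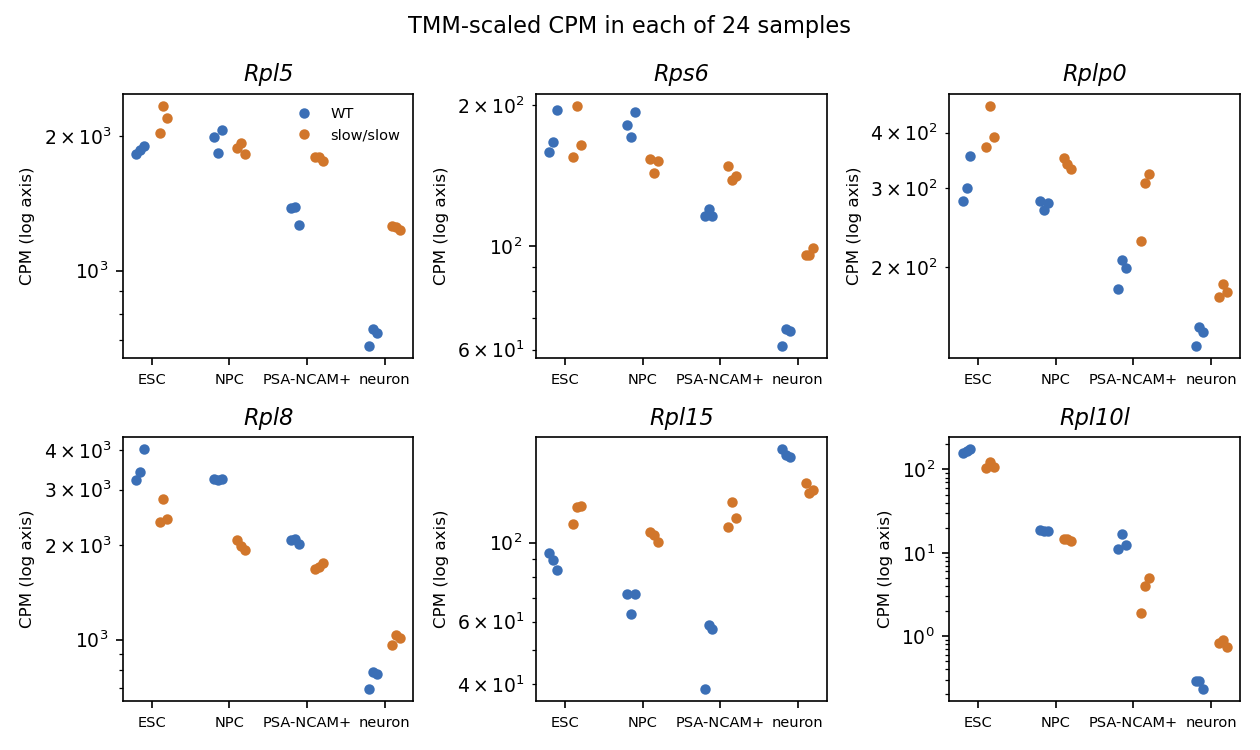
Level of selected members (CPM, log axis) in each of the 24 samples, by stage and genotype, with points for samples. Rpl15 rises in WT neurons while Rps6 and Rpl8 fall, and Rpl10l drops from 105 to 175 CPM in ESCs to under 1 CPM in neurons of both genotypes.

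Rpl15 had the reverse order. It was higher in slow/slow ESCs (0.46), NPCs (0.60) and PSA-NCAM+ cells (1.21 ± 0.111, FDR 2.6e-08), where the samples were 111, 130.1 and 117 CPM against 38.8, 58.7 and 57.4 CPM. In neurons it was lower, at 147, 138 and 141 CPM against 183, 176 and 174 CPM. No stage overlapped, and the neuron difference of −0.32 ± 0.109 had an FDR of 0.0175, a call lost with upper-quartile scaling and without WT neuron replicate 1 or slow/slow neuron replicate 2. The other 3 lower calls in neurons were the rows labelled Rpl24 (−0.48) and Rps4y2 (−0.46), both lost with upper-quartile scaling, and Rps27l, a stress-responsive paralog of Rps27 (−0.31, FDR 0.0486), lost in 9 alternatives.

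Paralog pairs did not always differ together. Rpl22 had 125, 138 and 135 CPM in WT neurons and 223, 214 and 222 CPM in slow/slow neurons, a difference of 0.73 ± 0.108 (FDR 1.22e-05). Its paralog Rpl22l1 had 66.6, 76 and 71.9 CPM and 86, 77.1 and 80.4 CPM there, without overlap but past no threshold (0.18 ± 0.0951, FDR 0.114). In ESCs and PSA-NCAM+ cells the call fell to the other paralog, with Rpl22l1 at 0.57 and 0.76 and Rpl22 at 0.14 and 0.22, and the difference between the paralogs was not tested. Rpl7 was higher in ESCs, PSA-NCAM+ cells and neurons (0.30, 0.55 and 0.48), whereas its paralog Rpl7l1, which acts in ribosome assembly, was higher in NPCs (0.40, FDR 0.00764).

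Rpl10l was lower in slow/slow ESCs (−0.56, FDR 0.024, lost without either of WT replicates 2 and 3 or slow/slow replicates 1 and 3) and PSA-NCAM+ cells. The PSA-NCAM+ samples were 11.1, 16.8 and 12.4 CPM in WT and 1.9, 3.99 and 5.01 CPM in slow/slow cells, all slow/slow samples lower (−1.86 ± 0.206, FDR 3.06e-07). In neurons, where it was under 1 CPM in every sample, it was higher in slow/slow cells (1.64 ± 0.317, FDR 0.000218). Rpl39l was lower in slow/slow PSA-NCAM+ cells, at 1.47, 2.03 and 2.16 CPM against 4.75, 3.64 and 2.52 CPM (−0.94 ± 0.202, FDR 0.000543). Rpl10, the parent of Rpl10l, was higher there (0.41, FDR 0.0219), though its samples overlapped.

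Rpl3l was 63.6-fold lower in WT neurons than in WT ESCs (exact 95% interval 30.5 to 159.6) and 8.16-fold lower in slow/slow neurons than in slow/slow ESCs (5.3 to 13.0). The WT interval includes the fitted decrease of Rpl39l (73.2-fold), so the order of these paralogs in WT neurons is not resolved. Rpl3l was close to the counting limit in neurons, with 7 reads over the 3 WT samples and 25 over the 3 slow/slow samples. The ratio of slow/slow to WT was 4.49, with an exact 95% interval of 1.89 to 12.3, and these intervals cover counting error only. In ESCs it had 1.73, 1.78 and 2.25 CPM in WT and 1.11, 1.21 and 0.96 CPM in slow/slow cells, all slow/slow samples lower (−0.81 ± 0.297, FDR 0.0355), a call that was lost when any 1 of the 6 samples was left out. In NPCs the order was opposite, at 0.707, 0.845 and 0.87 CPM in WT and 2.19, 1.86 and 1.82 CPM in slow/slow cells (1.27 ± 0.297, FDR 0.00119). Its parent gene Rpl3, which lies at the peptidyl transferase centre, was lower in slow/slow NPCs (−0.43) and higher in neurons (0.34).

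Tests of the interaction asked whether the genotype difference at a later stage departed from that in ESCs. In neurons 36 members had a positive interaction and 3 a negative one (20.5 and 21.6% of all genes), with a median of 0.37 against −0.03 over all genes. The positive calls were 17 large-subunit and 19 small-subunit genes, and the 3 negative ones were Rpl15 (−0.78), Rpl22l1 (−0.39) and the row labelled Rpl24 (−0.63). Rpl8 had an interaction of 0.90 ± 0.116 (FDR 3.79e-06). It lies on chromosome 15, where the median difference of all tested genes was −0.60 in ESCs and −0.08 in neurons. In NPCs 16 were negative and 1, Rpl3l, positive (11.0 and 13.6% of all genes), with a median of −0.21, and 31 were negative and 3 positive when only those groups were fitted. In PSA-NCAM+ cells 2 were positive, Rpl15 and Rps4x, and 1 negative, Rpl10l (15.1 and 12.0% of all genes), with a median of 0.19, and with the replicate number as a block 3 were positive and 2 negative. The NPC count fell to between 5 and 7 without WT NPC replicate 3, WT ESC replicates 1 or 2 or slow/slow ESC replicate 2, and to 11 without slow/slow NPC replicates 2 or 3. The PSA-NCAM+ count was 21 without slow/slow ESC replicate 2, 11 without slow/slow PSA-NCAM+ replicate 1, 8 without WT ESC replicate 1 and 6 without any 1 of WT PSA-NCAM+ replicates 2 and 3 and slow/slow PSA-NCAM+ replicate 2.

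The chromosome of a member moved with its genotype difference in 2 places. Over all 865 tested genes of chromosome 8, the median difference was 0.45, 0.49, 0.46 and 0.44 at the 4 stages in turn, and 55.0 to 56.6% of them were higher in slow/slow cells. Of its members, Rpl13, a large-subunit protein, had 42.2, 43.0 and 41.8 CPM in WT neurons and 91.9, 91.2 and 88.5 CPM in slow/slow neurons, a difference of 1.10 ± 0.101 (FDR 2.86e-08) without overlap.

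On chromosome 15, with 639 tested genes, the medians were −0.60, −0.57, −0.56 and −0.08, and 64.5% of genes were lower in slow/slow ESCs and 29.4% in slow/slow neurons. Its 4 members, Rpl3, Rpl8, Rpl30 and Rpl37, had medians of −0.48, −0.57, −0.31 and 0.37. Rpl37 had 578, 602 and 713 CPM in WT ESCs and 394, 527 and 438 CPM in slow/slow ESCs (−0.48 ± 0.11, FDR 0.0016). In neurons the order was opposite, 174, 177 and 187 CPM against 226, 228 and 254 CPM (0.40 ± 0.11, FDR 0.00485), and the samples overlapped at neither stage. Rpl30 was lower in slow/slow ESCs, at 9.09, 12.5 and 11.9 CPM against 18.4, 23.4 and 22.7 CPM (−0.95 ± 0.246, FDR 0.00413), and differed by 0.08 in neurons (FDR 0.819).

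Without the members on these 2 chromosomes, the other 75 gave 8, 4, 33 and 46 higher and 2, 24, 3 and 4 lower at the 4 stages in turn, with a neuron median of 0.42. The part of the chromosomes in the differences of these 6 genes was not tested.

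**Figure D5:**
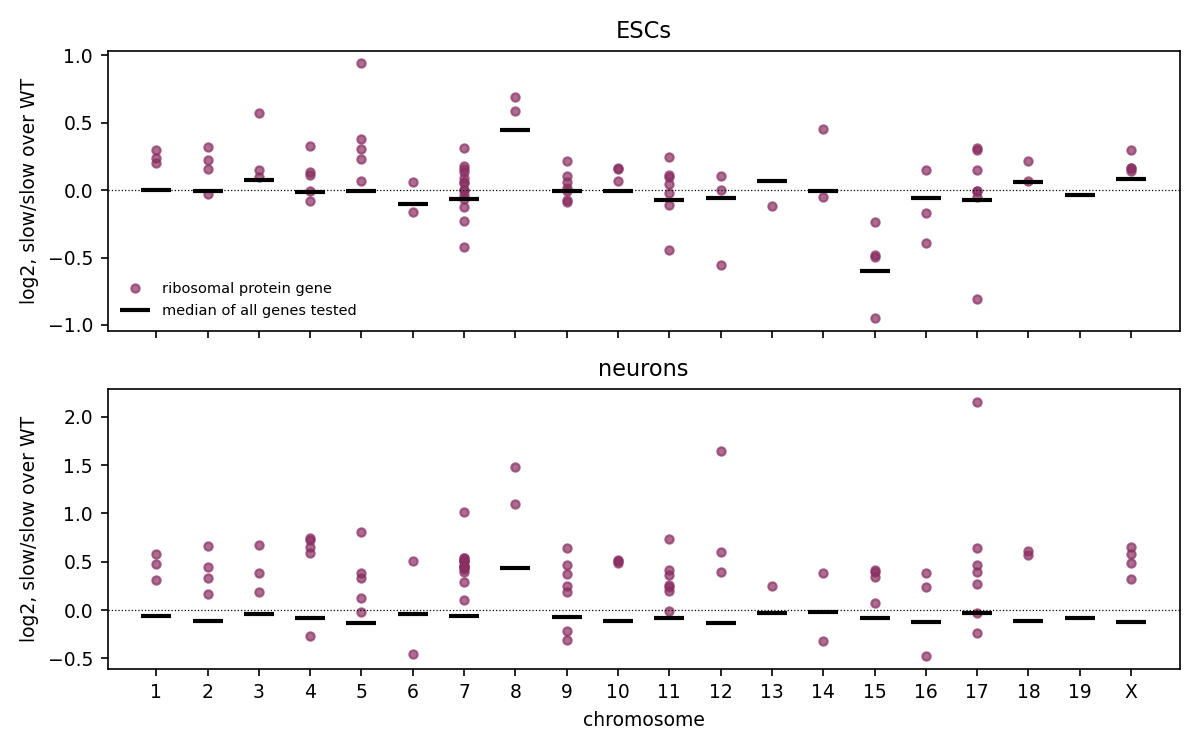
Log2 difference (slow/slow minus WT) in ESCs and neurons by chromosome, with the median of all tested genes of each chromosome beside the members that lie on it. Chromosome 8 has a median of 0.45 in ESCs and 0.44 in neurons, and chromosome 15 of −0.60 and −0.08.

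The members are short genes, with a median span of 3368 bases against 23164 for all tested genes that were annotated, and 75 of the 81 lay among the 4078 shortest genes, which spanned 66 to 9460 bases. Over all those short genes the median genotype difference was 0.00, −0.01, −0.12 and 0.00 at the 4 stages in turn.

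Other genes of the translation apparatus were counted from lists of their families. The shares of all genes higher and lower in slow/slow cells, against which these counts are read, were 18.5 and 21.9%, 29.3 and 27.4%, 28.6 and 28.1%, and 23.4 and 28.4% at the 4 stages in turn. Of 18 translation and mRNA-binding factors whose mRNAs have TOP tracts, 14 (77.8%) were higher and 0 lower in slow/slow neurons by edgeR, with a median of 0.44; 0 were lower at an unadjusted p under 0.05. They included Hnrnpa1, an RNA-binding splicing factor (0.96). At the 3 earlier stages in turn, 16.7, 5.56 and 50% of the list were higher and 22.2, 38.9 and 22.2% lower. All 18 were lower in WT neurons than in WT ESCs (39.4% of all genes), with a median of −1.21.

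Ribosome biogenesis factors, which process rRNA and assemble the subunits, went differently. Of 58 tested, 39 (67.2%) were higher and 0 lower in slow/slow NPCs (median 0.45, and 0 lower at an unadjusted p under 0.05). There 6.17% of the ribosomal protein genes were higher and 33.3% lower, the latter near the 27.4% of all genes. In slow/slow ESCs 31% were higher and 1.72% lower, and in slow/slow PSA-NCAM+ cells 27.6% were higher, near the share of all genes, and 1.72% lower. In slow/slow neurons 6.9% were higher and 19% lower (median −0.10), both under the shares of all genes. All 58 were lower in WT neurons than in WT ESCs, with a median of −1.28.

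Of 76 mitochondrial ribosomal protein genes 7.89% were higher and 19.7% lower in slow/slow neurons (median −0.08), again both under the shares of all genes. At the 3 earlier stages in turn, 23.7, 32.9 and 21.1% were higher and 7.89, 10.5 and 13.2% lower. Of 14 regulators of ribosomal protein expression, 5, 7, 3 and 3 were higher and 0, 0, 4 and 6 lower at the 4 stages in turn. Among them Myc, a transcription factor that drives ribosome production, differed by 1.17 (FDR 1.32e-05), 1.18 (FDR 5.99e-06), −1.23 (FDR 2.78e-06) and −1.01 (FDR 3.39e-05) in the same order, higher in slow/slow cells at the first 2 stages and lower at the last 2. The kinase Mtor was called in neurons alone (−0.51, FDR 0.000185), and its interaction there was −0.45 (FDR 0.0112). Of 12 p53 target genes, 9 (75%) were lower and 0 higher in slow/slow neurons (median −0.85; 0 higher at an unadjusted p under 0.05), including the apoptosis gene Pmaip1 (−1.83) and the cell cycle inhibitor Cdkn1a (−1.17). At the earlier stages in turn, 1, 4 and 1 of these were higher and 5, 4 and 4 lower.

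Splicing of the members was read from the deposited percent spliced in (PSI) values. At each stage 5 exons and 28 to 33 introns of members had enough reads in both genotypes, and 3 of the exons belonged to the row labelled Rpl24. By the criterion of a posterior of at least 0.95 and a difference of at least 10 PSI points, 0 were called at any stage. Over all genes 0.809, 2.93, 0.966 and 3.55% of exons were called at the 4 stages in turn, and 0.0529, 0.318, 0.0817 and 0.261% of introns. By limma on the logit of the reads, 0 members passed both the FDR and the 10 points. At an unadjusted p under 0.05, 1, 3, 1 and 0 member exons and 10, 9, 10 and 11 member introns differed at the 4 stages in turn. In NPCs 3 introns and in neurons 3 had an FDR under 0.05 with differences under 10 points. These counts were not taken over all genes, so whether members differ from other genes here is not known.

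The 75-base exon of Rps27l (mm9 chr9:66796450-66796524) was included at 0.71 to 0.75% in WT ESCs and 0.89 to 1.19% in slow/slow ESCs. These samples did not overlap. Inclusion and skipping reads together numbered at least 1077 in every ESC sample and 367 in every neuron sample. Nearly all of them skipped the exon, so its inclusion values rest on few reads. The intron of Rpl29 at mm9 chr9:106331971-106332300 was listed as retained at 100% in all ESC samples of both genotypes. In NPCs, PSA-NCAM+ cells and neurons in turn its mean was 100% in WT cells and 98.2, 97.7 and 96.3% in slow/slow cells. It had as few as 55 reads in an ESC sample and 17 in a neuron sample. Of the windows of Rpl29 21.5% were unique, so reads of other genes may be included.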

How the data were processed

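Poly(A)+ RNA of 24 samples was sequenced from stranded libraries as 75-base paired-end reads. The authors mapped the reads to mm9 and deposited raw read counts per gene made with vast-tools, RPKM averaged by the authors over the 3 samples of a group, and the percent spliced in (PSI) of each event per sample with quality scores that hold its reads. The submitters' processing notes also name bcl2fastq 2.17.1.14 and edgeR. Whether strand and multi-mapping reads entered the counts is not given in the sources used here. The deposited group estimates and calls of the authors' splicing comparison were not used.

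Counts of 16627 genes kept by filterByExpr, of 21553 rows with values, were fitted in 1 model of 8 groups (edgeR 4.0.16, R 4.3.3, TMM scaling, quasi-likelihood test, 16 residual degrees of freedom, common biological coefficient of variation 0.1643), with Benjamini-Hochberg FDR over all of them and a threshold of 0.05. The table held 1114 further rows without values. CPM used TMM-scaled library sizes, and shares of counts used unscaled totals. Totals of 32974432 to 104466886 reads per sample set the counting precision, and intervals cover counting error only. No 2 samples held identical counts (0 pairs).

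PSI events with at least 15 reads for introns, or the authors' coverage grades for exons, were called at a posterior of 0.95 and 10 points. Alternatives used limma 3.58.1 on the logit of the reads (offset 0.5), DESeq2 1.42.0, other scalings, filters, sample sets and a replicate block. The fits were tested on simulated data. The share of unique windows came from GENCODE M21 transcripts, and start sequences from RefSeq on GRCm38.p6, both matched by gene and never by mm9 coordinates.

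Same-numbered samples of both genotypes deviated together from their group means in PSA-NCAM+ cells (r = 0.58, 0.57 and 0.46, across genes) and not at the other stages (r = −0.20 to 0.31). The number was therefore taken to pair the samples in PSA-NCAM+ cells only, from the data and not from the labels. The main fit did not use this pairing.

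The named members were the paralog pairs, the stalk genes, Rpsa and 7 genes of well-known role, plus the members with the largest calls without overlap between groups (3 each way per genotype comparison, 2 per stage comparison) and the largest interactions (2 each way). Members shown for the chromosomes, for calls shared by stages and for high counts (Rpl4, Rpl8, Rpl13, Rpl30, Rpl37, Rps3 and Rps4x), and the Rpl29 and Rps27l events, were chosen after their values were seen where the rule did not name them. The members and gene lists were chosen with earlier results of these data known. Values of some members and listed genes that the rule would name are not reported here.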

Additional observations from a re-analysis of the deposited data

Results flagged for a closer look

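These members were singled out because their genotype difference (slow/slow minus WT, log2) at a later stage departed from that in ESCs by the interaction test of edgeR at an FDR under 0.05. All values are interactions, and all 3 tests share the ESC samples. With 3 samples a group, no test for single outlying samples was made.

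In neurons 39 members passed. Among the named members the interaction was positive for Rpl3l (2.97), Rpl10l (2.2), Rps19 (0.68), Rpl22 (0.59), Rps6 (0.59), Rpl3 (0.58), Rpl5 (0.58), Rpl39 (0.49) and Rps24 (0.43). It was negative for Rpl15 (−0.78), the row labelled Rpl24 (−0.63) and Rpl22l1 (−0.39). Rpl3l and Rpl10l were under 1 CPM in every neuron sample, so their values rest on few reads. Rpl3 lies on chromosome 15, where the median difference of all tested genes was −0.60 in ESCs and −0.08 in neurons. The call of the row labelled Rpl24 was lost in some alternatives.

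In NPCs 17 members passed. The interaction was positive for Rpl3l (2.08) and negative for Rpl17 (−0.79), Rpl36 (−0.74), Rpl22l1 (−0.67), Rpl39 (−0.48), Rpl36a (−0.43) and Rpl5 (−0.29). The call of Rpl36 was lost in some alternatives.

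In PSA-NCAM+ cells 3 members passed, Rpl15 (0.76), Rps4x (0.35) and Rpl10l (−1.3), and the call of Rps4x was lost in some alternatives.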

How the results depend on the processing

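Counts of called members and their median changes were recomputed with other scalings, without the low-count filter, with DESeq2, with a replicate block, with only the groups compared, with a minimum fold and without each sample. Of 2334 values of named genes, in 175 results, 91 lost a call and 50 gained one. None of a called member changed sign (0), and 34 of members that were not called did. Of the medians 2 changed sign, that of the ESC genotype comparison (0.09, from −0.03 to 0.21 without 1 sample) and that of WT NPCs against ESCs (−0.02, from −0.11 to 0.07 without 1 sample, 0.06 with upper-quartile scaling and 0.0074 with only those groups).

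With only the groups compared in the fit, the genotype comparison called 24 members in ESCs, 50 in NPCs and 8 in PSA-NCAM+ cells against 15, 32 and 40, and the neuron median was 0.48 against 0.41. The change from ESCs to NPCs then called 33 in WT and 49 in slow/slow cells, that to slow/slow PSA-NCAM+ cells 40, and the NPC interaction 34. These fits hold fewer samples, and the cause was not tested further. The shares of all genes called under the alternatives, the 1.5-fold rule among them, are not given here. Requiring a 1.5-fold change as well left 4, 4, 8 and 17 members in the genotype comparison at the 4 stages in turn, 8 in NPCs of each genotype against ESCs, 43 in WT and 15 in slow/slow PSA-NCAM+ cells against ESCs, and 4 and 17 for the interactions in NPCs and neurons. Upper-quartile scaling moved the neuron genotype median to 0.56 and the median of WT neurons against ESCs to −1.602. It moved the median of all genes from −0.06 to 0.08 and from 0.08 to −0.11 in these comparisons, and from −0.03 to 0.13 in the neuron interaction.

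A replicate block, a term for the replicate number shared by all groups, gave 5 interactions in PSA-NCAM+ cells against 3, and kept the other counts within 1.5 times. It cannot represent a pairing in PSA-NCAM+ cells alone, because it sets the same replicate effect at every stage. It removed the NPC call of Rps27a and added calls of Rpl38 in NPCs and neurons, Rpl7l1 in ESCs and Rpsa in NPCs.

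Leaving out 1 sample at a time gave 13 to 31 members for the genotype difference in NPCs, 15 to 54 for slow/slow NPCs against ESCs, 5 to 23 for the NPC interaction and 2 to 21 for the PSA-NCAM+ interaction. The neuron genotype count ran from 48 to 54 and the neuron interaction count from 27 to 51. Depth limits Rpl3l and Rpl10l in neurons, and shared sequence the rows with few unique windows.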
